A study of Homo sapiens with 4 samples.

Results

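A set of 8 transcription factors and cofactors of kidney formation was followed through siRNA treatment of HEK-293 cells: PAX2, PAX8, WT1, LHX1, SIX2, EYA1, SALL1 and GATA3. They were picked by name for their known place in kidney development, with PAX2 as the marker, a gene already seen to be lower with the siRNAs in these data, and all 8 were found, each on 1 row, among 24934 gene rows. HEK-293 is an established human line grown from embryonic kidney tissue, and its cells also carry transcripts of neuronal genes. The study transfected these cells with 10 nM of siRNA for 48 h to learn which genes change when ZSCAN5A or ZSCAN5B, a pair of related zinc finger proteins, are reduced. There were 4 groups with 1 library each: siRNA si4 against ZSCAN5A, siRNA si5 against ZSCAN5A, siRNA si1 against ZSCAN5B and a scrambled control siRNA, all in the same line with the same lipid transfection reagent. Expression is given as FPKM, fragments counted over a gene divided by transcript length and by the mapped total, so levels can be set side by side between genes.

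In the embryo the kidney forms from intermediate mesoderm, where PAX2, PAX8, LHX1 and GATA3 mark and maintain the lineage that becomes the nephric duct. The duct sends out the ureteric bud, and the mesenchyme around the bud holds nephron progenitors kept by SIX2, EYA1, SALL1 and WT1. Signals between bud and mesenchyme, among them GDNF, WNT and NOTCH ligands, then turn progenitors into nephron epithelium. Some of these factors are switched off as tubules mature.

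The siRNAs are shown because their seeds can be searched for in the transcripts of the 8 genes. Each guide strand below is the reverse complement of the siRNA sequence listed in the study's supplement, written 5′ to 3′ in DNA letters with the seed, bases 2 to 8, in capitals.
ZSCAN5A si4 guide: tTACACGTaaacctcttctcg
ZSCAN5A si5 guide: tCTCTTGTggatgactagctt
ZSCAN5B si1 guide: tAAATGATttattgcacacgt
Each of the 3 siRNAs, of 21 bases, matched 1 gene in full, the gene it is named for. On hg19 (GRCh37) the si4 site lay at chr19:56733332-56733352 and the si5 site at chr19:56733307-56733327, both in coding sequence on the minus strand, in exon 5 of the longest annotated ZSCAN5A transcript. The si1 site lay at chr19:56701591-56701611, in coding sequence of exon 5 of ZSCAN5B on the minus strand.

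The 7 bases that pair with each seed were then searched for in the 3′ UTR of the longest annotated protein-coding transcript of each of the 8 genes. For 6 of the 8 genes, PAX2 among them, no match to any of the 3 seeds was found. The sites in the other two are shown with the matched bases in capitals, read on the strand of the gene.
SALL1, match to si5: tgttccttACAAGAGcaaatgct
GATA3, match to si1: gtaggcgaATCATTTgttcaaag
The match in SALL1 lay at chr16:51170110-51170116 on the minus strand, and that in GATA3 at chr10:8116520-8116526 on the plus strand. Such matches are common: of 10939 genes with a 3′ UTR and at least 1 FPKM in a library, 3.54% held the si4 match, 12.7% the si5 match and 24.6% the si1 match. A match is a description of the letters, and binding there was not tested.

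The targeted genes were read first, as a check of the labels. ZSCAN5A stood at 0.730 FPKM with si4, 0.713 with si5 and 2.53 with si1, beside 2.42 in the control. Both libraries with ZSCAN5A siRNAs were therefore far under the other two, at 30.2% (22.9 to 39.2) and 29.5% (23.1 to 37.2) of the control level. ZSCAN5B stood at 0.0331, 0.0663, 0.0948 and 0.0903 FPKM in the same order. With depth taken into account, 6, 17, 16 and 15 are the smallest whole numbers in that proportion, and they were taken as fragments. The ZSCAN5B level with its own siRNA was 105% of the control, with an interval of 48.6% to 228%. That interval holds only if these numbers are the true counts, which were not available, so no lower limit is read from it. With si4 the ZSCAN5B level was 36.6% (11.6 to 99.9) of the control, an interval with the same limit. The study's own qRT-PCR and Western blot reported ZSCAN5B as reduced after its siRNA, and its qRT-PCR some over-expression of ZSCAN5B with si4. Those assays were not analysed here, and the si1 sample is called here the library labelled ZSCAN5B knockdown. Here and below the interval in brackets is an exact (Clopper-Pearson) 95% interval on estimated fragments. It covers counting error alone and not the spread between cultures, which 1 library per group cannot show.

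The libraries held an estimated 52800000 to 81500000 fragments, si5 being the deepest, and their FPKM values summed to 488036 to 546239, lowest in the control. Both comparisons rest on the same control library, so a value that is high in that library lowers every ratio at once. To be counted as lower or higher, a gene needed a ratio past 1.5-fold, a level of 1 FPKM or more in 1 or more of the libraries compared, and a value above 0 on both sides. By that rule 404 of 12993 genes were lower with the ZSCAN5A siRNAs (3.11%) and 88 higher (0.677%). In the library labelled ZSCAN5B knockdown 409 of 12921 were lower (3.17%) and 109 higher (0.844%). In bulk RNA, fewer cells that express a gene and less RNA per cell cannot be told apart.

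In the control the levels of the 8 genes ran from SALL1 at 6.64 FPKM and GATA3 at 6.32 through SIX2 at 4.24, LHX1 at 4.17 and EYA1 at 4.00 to WT1 at 1.88, PAX2 at 1.16 and PAX8 at 0.0398. Of the 8 genes, 7 reached 1 FPKM in at least 1 library, and PAX2 did so through the control library only. PAX8 was at the bottom in every library, far below the expression limit. The 8 values summed to 23.4 FPKM with si4, 23.1 with si5 and 25.6 with si1, beside 28.4 in the control.

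**Figure D1:**
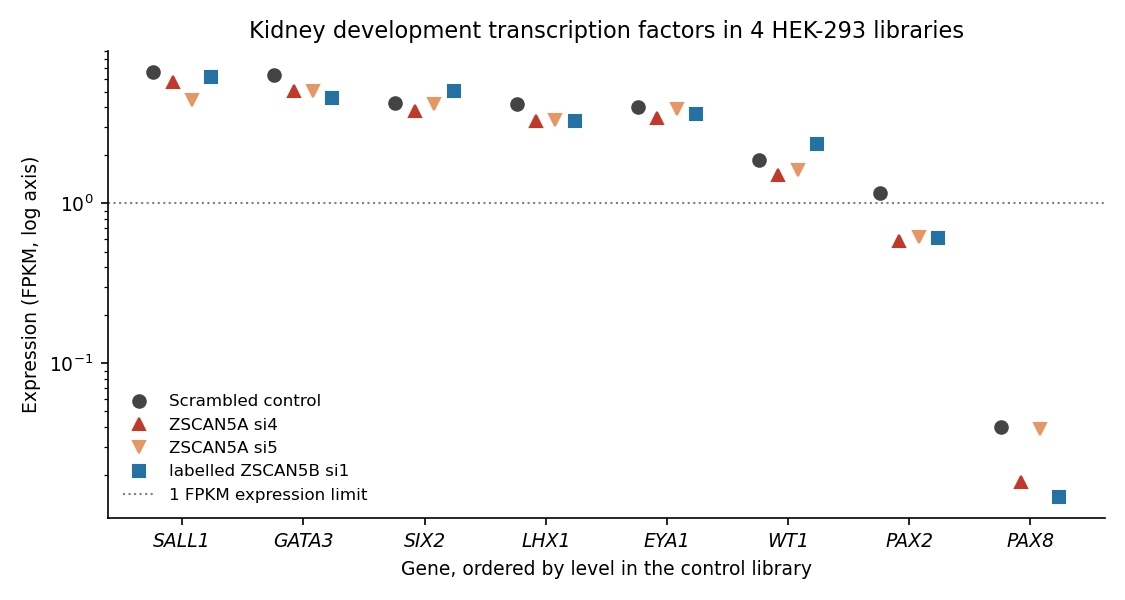
Expression of the 8 kidney development transcription factors in FPKM on a log axis, with 1 point per library and the genes ordered by their level in the control. The 3 PAX2 points with siRNA sit together between 0.584 and 0.615 FPKM, under the dotted limit of 1 FPKM, while the control point lies above it at 1.16, and PAX8 stays under 0.04 FPKM in every library.

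PAX2 was lower with the ZSCAN5A siRNAs and in the library labelled ZSCAN5B knockdown, 2 comparisons that share the control. No other of the 8 genes passed the fold rule in either, and none was higher. The counts are 1 of 7 genes that could be tested in each comparison, beside shares of 3.11% and 3.17% lower among all tested genes. Nothing is read from these shares, since PAX2 was listed with its lower level known and passed the FPKM limit through the control alone, and no test over the list was made. Comparing si4 with si5, 2 siRNAs to the same gene, 6 of the 8 factors could be tested, PAX2 and PAX8 being under 1 FPKM in both, and none of the 6 passed 1.5-fold, where 324 of 12800 genes did (2.53%).

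PAX2, a paired-domain factor needed for the nephric duct and for the mesenchyme to become epithelium, lies on hg19 at chr10:102505468-102589698. Its level was 0.584 FPKM with si4, 0.615 with si5 and 0.608 with si1, beside 1.16 in the control, on about 107, 160, 104 and 195 fragments. The 3 siRNA libraries lay close together and the control stood apart above them. The ratio to the control was 0.505 (0.393 to 0.639) with si4, 0.531 (0.428 to 0.658) with si5 and 0.525 (0.410 to 0.669) with si1. On the log2 scale the difference was −0.95 for the mean of the ZSCAN5A siRNAs and −0.93 for si1, and −0.07 between si4 and si5. The level with si1 was 1.01 times (0.798 to 1.27) the mean with ZSCAN5A siRNAs.

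The limits of that result lie in the single control and in the low level of the gene. Among 1214 genes whose highest library was from 1 to under 2 FPKM, 104 were lower with the ZSCAN5A siRNAs (8.57%). When only the 671 of them with the control as the highest library were taken, as PAX2 has, the number was 103 (15.4%). PAX2 transcripts are also rich in G and C, at 63.6% against a median of 48.1% over tested genes, and genes of like length and GC content had a median log2 ratio of −0.23 in the ZSCAN5A comparison and −0.20 in the other. After these medians were taken off, PAX2 kept log2 ratios of −0.72 and −0.73, still past the limit. With a pseudocount of 1, which shrinks the ratios of low genes, they were −0.43 and −0.42 and short of it. What these features contribute to the lower value was not tested beyond that correction.

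By a Euclidean distance over the 3 log2 ratios to the control, the genes whose pattern came nearest to that of PAX2 among 12982 were FLJ14186 at a distance of 0.122, POLR2A at 0.125, EP400 at 0.134, PRR12 at 0.135 and SRRM2 at 0.138. POLR2A, the largest subunit of RNA polymerase II, had 14.0, 14.9 and 16.2 FPKM with si4, si5 and si1 and 28.5 in the control. SRRM2, a splicing factor scaffold, had 24.1, 23.5, 25 and 44.6 FPKM in that order, and the chromatin remodeller EP400 had 3.75, 3.72, 3.83 and 6.91. In each the 3 siRNA libraries lay together under the control, which follows from how these genes were chosen, and at higher levels than PAX2. No length or GC content was available for FLJ14186. The longest annotated transcripts of POLR2A, EP400, PRR12 and SRRM2 run from 6304 to 12289 bases, against a median of 3574 over tested genes, while the longest of PAX2 has 4236. Their GC content was 56.3%, 55.4%, 66.7% and 56.0%, above the median of 48.1% over tested genes, as was the 63.6% of PAX2. The nearest expressed genes along the chromosome moved less: HIF1AN, 192 kb before PAX2, had a log2 ratio of −0.26 with the ZSCAN5A siRNAs and −0.29 with si1, and FAM178A, 82.6 kb after it, had −0.40 and −0.51.

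PAX8, the close relative that shares the early duct role of PAX2, is annotated at chr2:113973574-114036498. It was listed at 0.0182 FPKM with si4, 0.0386 with si5 and 0.0147 with si1, beside 0.0398 in the control. The smallest whole numbers in proportion, 4, 12, 3 and 8, were taken as fragments. Its ratios to the control of 0.458 (0.101 to 1.71), 0.971 (0.365 to 2.74) and 0.369 (0.0631 to 1.54) all have intervals that include 1, so no difference was detectable at this depth. LOC654433 overlaps PAX8 and was itself at 0.0138 to 0.0408 FPKM, so the few fragments of the pair may be shared.

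LHX1, a LIM homeobox factor of the nephric duct and of early nephron patterning, lies at chr17:35294772-35301915. The values were 3.29 FPKM with si4, 3.31 with si5 and 3.28 with si1, beside 4.17 in the control. The 3 siRNA libraries were almost level and all below the control, at ratios of 0.790 (0.710 to 0.878), 0.794 (0.720 to 0.875) and 0.786 (0.706 to 0.877). None reached 1.5-fold, and 12.3% of tested genes had a mean ratio as low in the ZSCAN5A comparison. The distance to the control is beyond counting error, and whether it is beyond the spread between cultures cannot be told with 1 control.

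GATA3, a zinc finger factor that acts with PAX2 and PAX8 in the duct, lies at chr10:8096667-8117164. It had 5.05 FPKM with si4, 5.05 with si5 and 4.54 with si1, beside 6.32 in the control. As with LHX1, si4 and si5 gave the same level and the control was the highest library, while si1 was the lowest. Its ratios were 0.800 (0.725 to 0.882), 0.799 (0.730 to 0.873) and 0.719 (0.649 to 0.797), all short of the limit. GATA3 is the gene whose 3′ UTR holds the match to the si1 seed printed above, and in the si1 library it was at 0.900 (0.822 to 0.985) of its mean in the ZSCAN5A siRNA libraries. The part of the seed match in that difference was not tested.

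**Figure D2:**
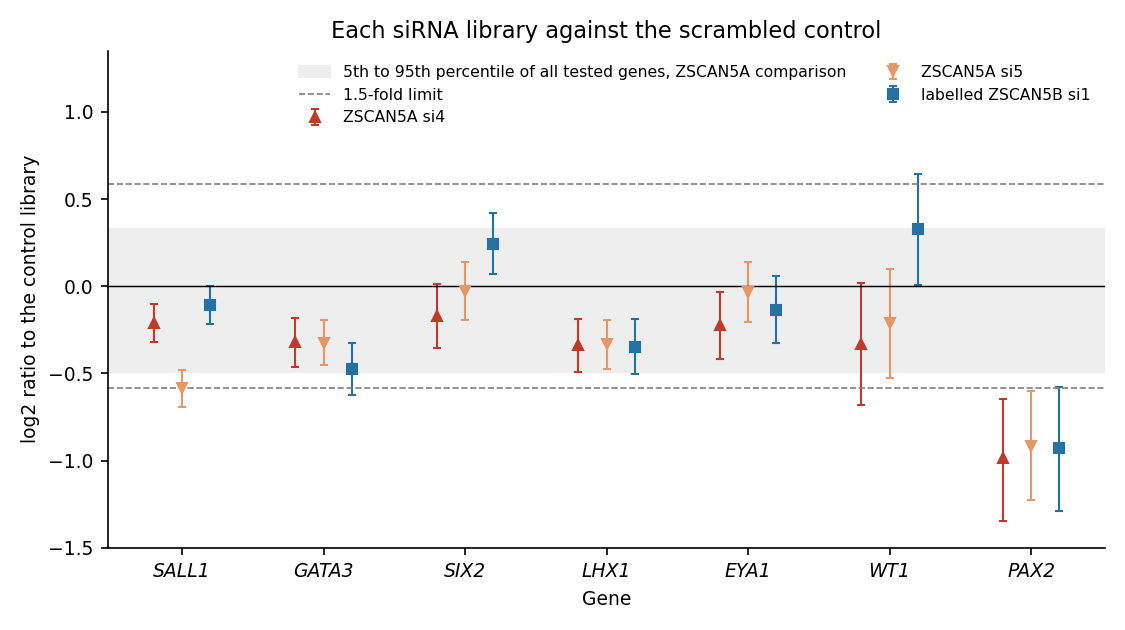
The log2 ratio of each siRNA library to the scrambled control for the 7 genes that reached 1 FPKM, with exact 95% counting intervals as bars. The grey band spans the 5th to 95th percentile of all tested genes in the ZSCAN5A comparison, from −0.49 to 0.33, and the dashed lines mark 1.5-fold. All 3 PAX2 points lie under the lower dashed line, the si5 point of SALL1 sits on it, and the si1 points of SIX2 and WT1 are the only ones above 0.

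SALL1, a zinc finger repressor that keeps nephron progenitors and lets the bud invade, lies at chr16:51169886-51185183. It had 5.74 FPKM with si4, 4.42 with si5 and 6.16 with si1, beside 6.64 in the control, the highest control level of the 8 genes. The si5 library was apart from all others. Its ratio to the control was 0.666 (0.619 to 0.717), just past 1.5-fold when si5 is taken alone, while si4 gave 0.865 (0.802 to 0.933) and si1 gave 0.928 (0.860 to 1.00). The level with si4 was 1.30 times (1.2 to 1.4) that with si5, a log2 difference of 0.38, and 8.49% of tested genes differed as far between these siRNAs. The mean of both gave −0.39 against the control, short of the limit. SALL1 was the gene with the si5 seed match, and the part of that match in the lower si5 value was not tested.

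SIX2, the homeobox factor that holds nephron progenitors undifferentiated, lies at chr2:45232324-45236542. Its level was 3.76 FPKM with si4, 4.16 with si5 and 5.02 with si1, beside 4.24 in the control. The si1 library was the highest and the ZSCAN5A siRNA libraries were at or below the control. The ratio with si1 was 1.18 (1.05 to 1.34), and with si4 and si5 it was 0.888 (0.781 to 1.01) and 0.982 (0.876 to 1.1), so that only the si1 interval leaves out 1.

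EYA1, a phosphatase and transcriptional partner of SIX2 and its relatives, lies at chr8:72109668-72274467. It had 3.43 FPKM with si4, 3.91 with si5 and 3.65 with si1, beside 4.00 in the control. The 4 libraries were closer together than for any other of the 8 genes, the highest being 1.17 times the lowest. Its ratios were 0.856 (0.750 to 0.979), 0.977 (0.869 to 1.1) and 0.911 (0.798 to 1.04).

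WT1, a zinc finger factor of the mesenchyme that later marks podocytes, lies at chr11:32409322-32457081. It stood at 1.5 FPKM with si4, 1.63 with si5 and 2.36 with si1, beside 1.88 in the control, on about 131, 201, 192 and 151 fragments. Here too the si1 library was the highest and both ZSCAN5A siRNA libraries lay under the control. With si1 it was at 125% (101 to 156) of the control, and with si4 and si5 at 79.6% (62.4 to 101) and 86.5% (69.4 to 107). The si1 level was 1.51 times the mean with ZSCAN5A siRNAs. WT1 and SIX2 were thus the 2 genes of the 8 on the other side of the control with si1.

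Counting direction alone, all 8 genes were below the control with the ZSCAN5A siRNAs, 7 of the 7 that were tested, where 53.3% of all tested genes were. In the library labelled ZSCAN5B knockdown 6 of 8 were below, 5 of the 7 tested, beside 51.5%. For 5 of the 7 tested genes the control was the highest of the 4 libraries, and this held for 4702 of 12983 genes (36.2%). The median log2 ratio of the 7 was −0.32 with the ZSCAN5A siRNAs and −0.13 with si1, while over all tested genes it was −0.02 and −0.01. Without PAX2, whose lower level was known when the genes were listed, 6 of 6 tested genes were below the control with the ZSCAN5A siRNAs and 4 of 6 with si1, the control was highest for 4 of 6, and the medians were −0.30 and −0.12. Genes of like length and GC content also lay below the control for most of the 7. With the ZSCAN5A siRNAs their median log2 ratio was −0.10 for WT1, LHX1 and GATA3, −0.11 for SALL1 and −0.23 for PAX2. For SIX2 and EYA1 it was −0.01 and 0.04. After these medians were taken off, all 7 stayed below 0 with the ZSCAN5A siRNAs. Because every ratio shares the control, the common direction is not repeated evidence.

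Most of the 8 factors belong to families whose other members were also transcribed, in several cases at higher levels. In the control, PAX2 ranked 4th of 9 PAX genes, behind PAX3 at 5.47, PAX6 at 3.83 and PAX9 at 2.76 FPKM, and PAX8 ranked 8th. EYA1 was last of 4 in its family, which EYA4 led at 10.1 FPKM. SALL1 was 2nd of 4, after SALL2 at 7.66, LHX1 2nd of 8, after LHX2 at 5.68, and GATA3 2nd of 6, after GATA6 at 21.1. WT1 was the highest of 5 when set with the EGR genes, whose zinc fingers it resembles. These ranks rest on 1 library.

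**Figure D3:**
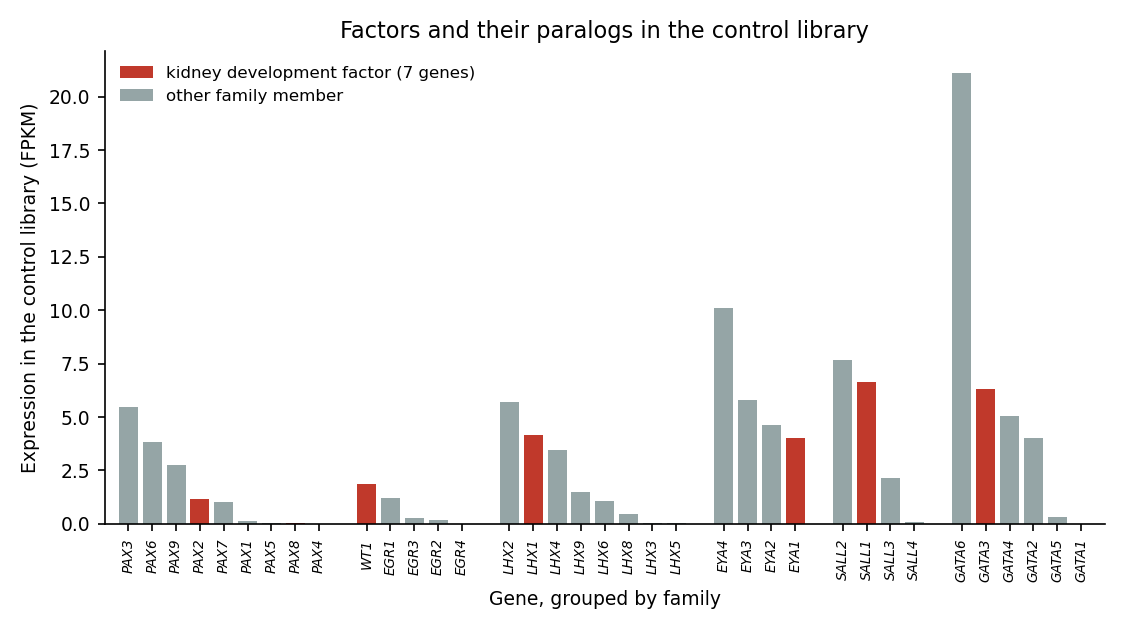
Expression in FPKM in the control library for 7 of the factors (red bars) and 29 other members of their families (grey bars), with genes in falling order within a family. WT1 is the only one of these 7 that leads its group, and GATA6 at 21.1 FPKM is the highest bar.

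The families of the 8 factors hold 34 other listed genes, of which 21 could be tested. With the ZSCAN5A siRNAs 1 was lower and none higher, beside 3.11% and 0.677% of all tested genes, and 19 of 21 were below the control, beside 53.3%, with a median log2 ratio of −0.28. In the library labelled ZSCAN5B knockdown none passed the rule, 18 of 21 were below, beside 51.5%, and the median was −0.20. The lower gene was SALL3, a relative of SALL1, with 1.46 FPKM with si4, 1.28 with si5 and 1.68 with si1, beside 2.16 in the control. It passed the limit with si5 alone but not with si4 alone, at −0.57. The count was 2 with either siRNA taken alone, where over all genes 673 were lower with si4 alone and 381 with si5 alone. LHX6 and LHX9 passed with si4, and SALL3 and EGR1 with si5 (LHX6, LHX9 and EGR1 were named after their values were seen). In the comparisons where they passed, LHX6, LHX9 and EGR1 reached 1 FPKM in the control only, where they are high. Nothing is read from these counts for that reason. GATA6, a regulator of endoderm and heart, had 16.8, 15, 14.4 and 21.1 FPKM, and came near the limit with a log2 ratio of −0.55 for si1. EYA4 was nearly level, with a log2 ratio of 0.05 for the ZSCAN5A siRNAs. Whether these relatives lay below the control more often than other genes was not tested.

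Other regulators of kidney formation, 47 genes, gave 35 that could be tested with the ZSCAN5A siRNAs. Of these 3 were lower and none higher, beside 3.11% and 0.677% of all tested genes, and the median log2 ratio was −0.18. They were GLI3, the mediator of hedgehog signalling, at −0.68, SOX9, a factor of the bud tip and of tubule repair, at −0.59, and TSHZ3, a factor of ureter smooth muscle, at −0.59. SOX9 and TSHZ3 lie close to the limit, and under median-ratio scaling 1 of the 3 genes stayed past it. SOX9 passed with si4 alone but not with si5 alone, at −0.50. TSHZ3 passed with si5 alone but not with si4 alone, at −0.55. With si1, 36 were tested, 3 were lower and 2 higher, beside 3.17% and 0.844% of all tested genes, and the median was −0.12. FOXD1, the marker of kidney stroma, had 9.76 FPKM with si1 against 16.4, 13.7 and 18.0 with si4, si5 and in the control, a log2 ratio of −0.88. ZNF503 and GLI3 were the others lower, at −0.61 and −0.59, and under median-ratio scaling GLI3 was lost and 2 stayed past the limit. ETV4 and ETV5, the targets of GDNF and RET signalling in the bud tip, were higher at 0.88 and 0.93. ETV4 was also far apart between si4 and si5, at 1.01 and 2.28 FPKM, and ETV5 reached 1 FPKM with si1 only. With si4 alone ETV4 passed the limit downward, at −0.62. The most abundant of the list in the control, SOX4 at 68.8, HOXA10 at 55.7 and CITED2 at 49.4 FPKM, passed the limit in neither comparison.

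Among 49 genes for the signals and receptors that act on these factors, and the matrix they act through, 34 were tested. Of these 3 were lower and 1 higher with the ZSCAN5A siRNAs, and again 3 and 1 with si1, with medians of −0.18 and −0.14. The shares of all tested genes were 3.11% lower and 0.677% higher in the first comparison and 3.17% and 0.844% in the second. With si4 alone 5 were lower, as NPNT (6.65 FPKM with si4 beside 13.3 in the control) and FRAS1 (2.36 beside 3.62), both named after their values were seen, passed with that siRNA only. Over all genes the lower count also rose, to 673 with si4 alone from 404 with the mean of both siRNAs. The receptors NOTCH2 and NOTCH1, which act in proximal nephron formation, were lower in both. NOTCH2 had 7.26 FPKM with si4, 6.38 with si5 and 7.96 with si1, beside 12.5 in the control, and NOTCH1 had 1.15, 1.12, 1.26 and 1.93. For both genes every siRNA library lay well under the control. ROBO2, the receptor that limits where the bud forms, was lower with the ZSCAN5A siRNAs at −0.60. ITGA8, the mesenchymal integrin needed for bud outgrowth, was lower with si1, at 4.58 FPKM against 7.14, 8.19 and 9.11 in the si4, si5 and control libraries. MET, the receptor of hepatocyte growth factor, was higher in both comparisons, with 12.8, 15.4 and 15.9 FPKM in the si4, si5 and si1 libraries and 8.05 in the control. The most abundant genes of the list, CTNNB1 at 85.7, LAMB1 at 36.3 and VEGFA at 26.6 FPKM in the control, passed the limit in neither.

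**Figure D4:**
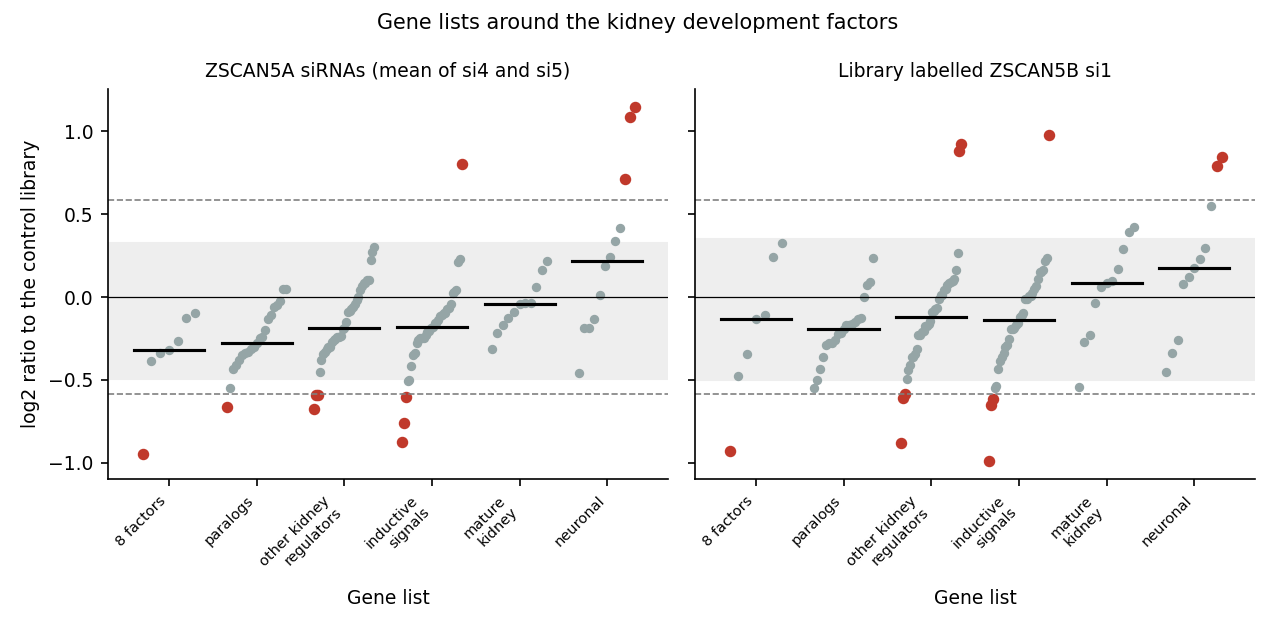
The log2 ratio to the control of each tested gene in 6 gene lists, for the mean of the ZSCAN5A siRNAs (left) and the library labelled ZSCAN5B knockdown (right). Red points passed 1.5-fold (dashed lines), black bars are medians, and the grey band is the 5th to 95th percentile of all tested genes. The lowest point of the 8 factors is PAX2 in both panels, and the medians of the first 4 lists lie under 0 in both.

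The cells were checked against markers of what kidney tissue becomes and of other cell types. Of 37 genes of mature kidney, 11 reached 1 FPKM, and the tubule genes UMOD, SLC22A6, SLC22A8 and AQP2 were listed at 0 in every library. The highest of the list were the general epithelial genes KRT8 at 148 FPKM, EPCAM at 91.1 and KRT18 at 70.4 in the control. Also past 1 FPKM in the control were PODXL at 9.74, CDH1 at 3.52 and LRP2 at 3.22. AQP3 stood at 1.71, ATP6V1B1 at 1.57 and CLIC5 at 1.05, and PVALB reached 1 FPKM with si5 and si1 only. The fold rule was passed by 0 of the 11, with medians of −0.04 and 0.09, beside the low shares over all tested genes of 3.11% lower and 0.677% higher with the ZSCAN5A siRNAs and 3.17% and 0.844% with si1. Summed, the list stood at 428, 409, 470 and 389 FPKM in the si4, si5, si1 and control libraries. Most of that sum came from KRT8, KRT18, KRT19 and EPCAM. Without these 4 it was 21.9, 21.8, 23.8 and 24.7 FPKM in the same order, with the control highest.

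Of 22 neuronal genes, 12 reached 1 FPKM, and UCHL1 at 316 FPKM, NEFL at 41.6 and NEFM at 10.1 led in the control. Their sum was lowest in the control, at 401 FPKM beside 456, 465 and 484 with si4, si5 and si1, but UCHL1 made up most of it. Without UCHL1 the sum was 84.7 FPKM in the control, above the 80.0 with si5 and below the 92.6 with si4 and 96.0 with si1. CHGB, SYP and GAP43 were higher with the ZSCAN5A siRNAs, SYP and GAP43 also with si1, and none was lower. These are 3 of 12 and 2 of 11 tested genes, beside 0.677% and 0.844% higher over all tested genes. CHGB and GAP43 were under 1 FPKM in the control, at 0.377 and 0.842, and reached it in siRNA libraries only. Nothing is read from these shares, since both genes passed the FPKM limit through libraries where they are high. The list medians were 0.22 and 0.18, with 4 and 3 of its genes below the control. CHGB and SYP were carried by the si4 library, at 1.24 and 6.18 FPKM, with 0.439 and 2.75 in the si5 library. The part of these differences in the values of the 8 factors was not tested. Of 10 adrenal cortex genes, 9 had a row of their own and none of these reached 1 FPKM, where NR0B1 at 0.149 FPKM was the highest in the control. NR5A1 and CYP17A1 followed at 0.0650 and 0.0616. Of 12 endothelial and blood genes 3 did, CD68 at 2.29 FPKM in the control and the haemoglobin genes HBA1 and HBA2, which are near-identical and counted as uncertain, at 0.650 and 0.516. HBA1 and HBA2 passed the limit upward in both comparisons, for the ZSCAN5A siRNAs through si4 only, with log2 ratios of 1.74 and 1.46 beside 0.32 and 0.25 with si5. They reached 1 FPKM in the si4 and si1 libraries only, where they are high, so nothing is read from their passing. From the same list EMCN and HBB were listed at 0 throughout. Of 11 muscle and fibroblast genes, ACTA2 at 11.3 and COL1A1 at 1.85 FPKM reached the limit and neither passed the fold rule, while PDGFRA stood at 0.933 FPKM and COL1A2 was listed at 0 in every library.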

How the data were processed

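Poly(A) RNA of 4 HEK-293 cultures was sequenced, 1 library per siRNA. Per the submitters' processing notes, the authors used CASAVA 1.8.2, Trimmomatic 0.30, TopHat2 2.1.0 and Cufflinks 2.2.1 on hg19, and deposited a table of FPKM values per gene, which were used as deposited. The transcript annotation is not given in the sources used here, and labels and methods name different stranded mRNA kits. The table had 0 unused columns of per-sample values.

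The 8 genes and the other gene lists were chosen with earlier results of these data known. The mean of si4 and si5, and separately si1, was divided by the control, with no pseudocount and no p-value, since each siRNA and the control had 1 library. Depth was estimated from genes under 0.1 FPKM, of which 1223 of 1745 (70.1%) had values in whole-number proportions within 0.05%. For these genes the smallest such whole numbers were taken as fragments, which need not be the true counts. Fragments of other genes were estimated from FPKM, depth and the shortest annotated basic protein-coding transcript that had 0.5 or more of the length of the longest. The absolute depth of the control has quartiles of 45500000 to 56200000 fragments over 980 genes. Length and GC content came from GENCODE on GRCh37 and were found for 87.1% of tested genes. No repeat cultures are named, so intervals cover counting error only.

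Named genes were all 8 factors, the targeted genes, each listed gene past the fold rule in either comparison (at most 6 a list and comparison), the 3 highest of each list in the control, and the 5 genes nearest to PAX2 in pattern. Flanking genes of PAX2, the overlap of PAX8 and the family members ahead of each factor were named by position or rank. KRT19, PODXL, CDH1, LRP2, AQP3, ATP6V1B1, CLIC5 and PVALB were named outside these rules, from their values. So were UMOD, SLC22A6, SLC22A8, AQP2, EMCN, HBB and COL1A2, all listed at 0 throughout. Alternatives covered scaling, pseudocount, each ZSCAN5A siRNA alone, length and GC correction in 10 bins each, the FPKM and fold limits, and limma 3.58.1 on log2(FPKM + 1) with Benjamini-Hochberg adjustment. Scripts in Python 3.11.15 (NumPy 2.4.6, pandas 2.3.3, SciPy 1.17.1, matplotlib 3.10.9) and R 4.3.3 were tested on simulated data. Some genes of the lists are not reported here by name, although the counts include them.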

Additional observations from a re-analysis of the deposited data

Results flagged for a closer look

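For 2 of the 8 factors and 4 listed genes, both ZSCAN5A siRNA libraries lay on one side of the control and the library labelled ZSCAN5B knockdown on the other. With 1 library per siRNA this difference was not tested. The si1 log2 ratio minus that of the ZSCAN5A siRNAs was 0.59 for WT1 and 0.34 for SIX2. It was 0.45 for SOX4, 0.36 for NEFM and 0.26 for NEFL. For HOXA10, higher with the ZSCAN5A siRNAs and lower with si1, it was −0.27, and its si5 library was level with the control (55.8 and 55.7 FPKM).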

How the results depend on the processing

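A pseudocount added to both sides of a ratio cannot change its sign, so such alternatives, counted among the 94 below, were no test of direction. The log2 ratios of the 8 factors kept their sign in 94 of 94 alternatives, 89 of them within the counting interval. These include the alternatives for PAX8, which was not tested for lack of expression and moved across the 1.5-fold ratio, from −1.13 with si4 alone to −0.02 with a pseudocount of 1 for the ZSCAN5A siRNAs, and from −1.44 to −0.04 for si1. PAX2 ranged from −0.99 to −0.43 with the ZSCAN5A siRNAs and from −0.92 to −0.42 with si1, and a pseudocount of 1, which shrinks low values, gave the ends of −0.43 and −0.42, short of 1.5-fold. SALL1 was −0.21 with si4 alone, −0.59 with si5 alone and −0.27 after the length and GC correction, which also took it from −0.11 to −3.4e-05 with si1. Scaling between libraries moved the median of all genes by at most 0.025 on the log2 scale.

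With the ZSCAN5A siRNAs, 1 factor was lower. The count became 0 with a pseudocount of 1, a 5 FPKM limit, a 2-fold limit or limma, 2 with si5 alone (PAX2 and SALL1) and 4 with a looser fold limit (a ratio of 5 to 4). Over all genes, 404 were lower and 88 higher. The counts were 158 and 41 with a pseudocount of 1, 673 and 149 with si4 alone, 1749 and 763 without an FPKM limit, 162 and 43 at 5 FPKM, 50 and 23 at 2-fold, 1736 and 668 at the looser limit, and 9 and 1 by limma. With si5 alone they were 381 and 76. The length and GC correction could be made only for the 11318 tested genes with both values, and left 208 lower and 78 higher.

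With si1, 1 factor was lower. The count became 0 with a pseudocount of 1, a 5 FPKM limit or a 2-fold limit, 2 without an FPKM limit (PAX8 added, on 3 against 8 fragments), and 3 lower and 1 higher (WT1) at the looser limit. Over all genes, 409 were lower and 109 higher. The counts were 150 and 60 with a pseudocount of 1, 1476 and 888 without an FPKM limit, 196 and 56 at 5 FPKM, 42 and 25 at 2-fold, and 1656 and 866 at the looser limit. The length and GC correction could be made only for genes with both values, and left 234 lower and 78 higher.

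In limma, si4 and si5 served as replicates and the lone control was assumed to vary like them, with 1 residual degree of freedom per gene. Of 13044 genes 10 had an adjusted p under 0.05, each of them listed at 0 in a library, so that the loss of PAX2 there says nothing about its stability, and 1618 had an unadjusted p under 0.05. For the 7 factors tested the adjusted p ran from 0.393 (PAX2, unadjusted 0.0109) to 0.749, and 2 were under 0.05 unadjusted. No paired analysis was possible because each group has 1 library. The single control and the low level of PAX2 and PAX8 limit these results.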
